A study of Homo sapiens with 6 samples.

Results

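The 7 keratin genes *KRT7*, *KRT8*, *KRT18*, *KRT19*, *KRT4*, *KRT13* and *KRT80* were followed in cultured human keratinocytes. They were grouped as keratins of simple or mucosal epithelia and not of intact epidermis, though *KRT80* is found in many epithelia. They were chosen by name from 21475 genes, and all 7 had a row in the deposited tables and passed the filter on low values, a mean of at least 0.5 FPKM. RNA of 3 WT and 3 *FGFR2* KO lines of HaCaT, a spontaneously immortalized human keratinocyte line, had been sequenced as 1 library per line. FPKM scales the fragments of a gene by the length of its transcript and by the depth of the library, so levels of different genes can be compared on it. All 6 lines were grown in DMEM with 10% FBS, and no further stimulus is given in the labels. The KO lines had been made with CRISPR/Cas9 and a guide to exon 7 of *FGFR2*, and each KO line is the progeny of a single cell. A figure legend of the study describes the sequenced WT lines as clonally expanded too. Its text, however, names 1 WT line as the original cell population, and the labels do not say whether that line is among the 6. Differences between clones and differences between genotypes can therefore be compared only over 3 lines a group, and the labels do not say whether cultures were independent beyond this.

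Keratins form intermediate filaments, the fibres that give epithelial cells mechanical strength. A filament is built from pairs of 1 type I (acidic) and 1 type II (basic) keratin, so a cell needs partners of both types. KRT8 and KRT18 are the pair of simple epithelia such as liver and gut, KRT7 and KRT19 are found in ductal and glandular epithelia, KRT4 and KRT13 are the pair of the suprabasal layers of mouth and oesophagus, and KRT80 is a type II keratin found in many epithelia. Basal epidermis uses KRT5 and KRT14 instead, and differentiating epidermis KRT1 and KRT10.

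The type II genes of the group lie on chromosome 12 of GRCh38. *KRT80* (ENSG00000167767) spans 52168996 to 52192014 on the minus strand, *KRT7* (ENSG00000135480) 52232520 to 52252186 on the plus strand, *KRT4* (ENSG00000170477) 52806549 to 52814116 on the minus strand and *KRT8* (ENSG00000170421) 52897187 to 52949954 on the minus strand. *KRT18* (ENSG00000111057), from 52948871 to 52952906 on the plus strand of chromosome 12, is a type I gene that stands beside *KRT8*. The other type I genes, *KRT13* (ENSG00000171401), from 41500981 to 41505705, and *KRT19* (ENSG00000171345), from 41523617 to 41528308, lie on the minus strand of chromosome 17. The reference transcripts have 6 exons and 1390 bases in *KRT19*, 7 exons and 1413 bases in *KRT18*, 8 exons and 1714 bases in *KRT13*, and 9 exons and 3873 bases in *KRT80*, the longest of the 7.

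The annotated spans of *KRT8* and *KRT18* share 1084 bases on opposite strands. The library kit keeps the strand, but whether the quantification used it is not given in the sources used here. GENCODE also names 51 pseudogenes of *KRT8*, 68 of *KRT18* and 5 of *KRT19*, none of which had a row. How reads shared with such copies were assigned is not stated, and the levels of these 3 genes are uncertain to that extent.

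RefSeq's promoter table (GRCh38.p14) held 2 of the 7 genes, and only the entry of *KRT4* began at the start of the reference transcript. Its sequence is shown because *KRT4* had the widest range of all 7 keratins over the lines. The stretch is chr12:52814117-52814236, the 120 bases before the start site on the minus strand, with the match to TATAA in capitals.
*KRT4* promoter: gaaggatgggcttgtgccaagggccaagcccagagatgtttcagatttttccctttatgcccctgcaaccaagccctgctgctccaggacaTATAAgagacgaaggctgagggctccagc
TATAA, searched on both strands, occurs in the 250 bases before the start in 18.9% of 35116 promoters of that table. In *KRT4* it begins 29 bases before the start. The AP-1 motif TGANTCA (6.57% of promoters) and GGGCGG (42.6%) did not match in the 250 bases of *KRT4*.

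The check of the labels was met. *FGFR2*, which encodes the targeted receptor for fibroblast growth factors, was at 21.6, 39.7 and 15.0 FPKM in WT replicates 1 to 3 and at 3.04, 2.26 and 4.31 FPKM in KO replicates 1 to 3. No KO line reached the lowest WT line. Even so, its log2 fold change of -2.73 had an adjusted p of 0.261 in limma. The libraries were deep, at roughly 74000000 to 97000000 fragments as estimated from the steps of low values, and 11.9 to 27.6% of FPKM came from mitochondrial genes. Keratinocyte markers were all expressed (15 of 15, summed level 15217.4 to 21682.6 FPKM in WT and 18273.0 to 30471.6 FPKM in KO). Of the 9 fibroblast markers 6 had a mean under 0.5 FPKM, among them *COL3A1* and *PDGFRB*. The other 3 were *FBLN1* at 66.67 to 115.4 FPKM, *COL1A1* at 6.824 to 16.7 FPKM and *DCN*, at 15.54 FPKM in WT replicate 2 and at most 1.664 FPKM elsewhere. All 9 together summed to 84.33 to 148.6 FPKM in WT and 74.45 to 103.2 FPKM in KO. Melanocyte markers summed to at most 5.585 FPKM, endothelial markers to at most 27.18 FPKM and immune markers to at most 20.99 FPKM. The libraries are of a keratinocyte line, and the source of these other marker messages was not tested.

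Across the 12241 tested genes limma called none (0%) when an adjusted p no higher than 0.05 was asked for together with a log2 fold change of 0.5 or more in either direction. At an unadjusted p of at most 0.05 and the same fold change, 1251 genes (10.2%) were higher and 285 (2.33%) lower in KO. The lowest KO line exceeded the highest WT line in 18.3% of genes, and the highest KO line was under the lowest WT line in 5.77%. Of the 7 keratins none was called, 1 was higher (*KRT18*) and 1 lower (*KRT4*) at the unadjusted threshold, and 1 (*KRT18*) had groups that did not overlap. So 1 of 7 in a direction stands beside background shares of 10.2% and 2.33%, too few genes to read anything from. The mean log2 difference was above 0 for 2 keratins and below 0 for 5, with a median of -0.23, beside a median of 0.09 over all tested genes. Since whole cell lines were measured, fewer cells with a keratin and less of its RNA per cell cannot be told apart.

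*KRT13*, the type I keratin of the mucosal pair, was the highest of the 7 in every line, at 7358.2, 10890.8 and 4718.4 FPKM in WT replicates 1 to 3 and at 5452.8, 7101.2 and 5070.5 FPKM in KO replicates 1 to 3. It ranked between 9 and 16 among all 21475 genes in every line, so the most abundant keratin of the 7 was among the most abundant messages of these cells. The groups overlapped, with WT replicate 2 highest and WT replicate 3 lowest. WT averaged 7655.8 ± 3096.9 FPKM and KO 5874.8 ± 1079.1 FPKM (SD, n = 3 each). The log2 fold change was -0.32 (SE 0.36, limma adjusted p = 0.668), with a 95% interval from -1.15 to 0.52. It was -0.02 without WT replicate 2 and -0.62 without WT replicate 3.

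*KRT4*, the type II partner of *KRT13*, was at 1438.6, 4411.8 and 931.5 FPKM in the WT lines and at 687.8, 961.0 and 167.0 FPKM in the KO lines. It varied by far the most, 26.4-fold from KO replicate 3 to WT replicate 2, and it ranked anywhere between 16 and 669. The highest KO line, replicate 2, lay just above the lowest WT line, replicate 3, so the groups overlapped. The mean was 2260.6 ± 1880.1 FPKM (SD, n = 3) in WT and 605.3 ± 403.4 FPKM (SD, n = 3) in KO, a ratio of 0.268. Its log2 fold change of -1.91 (SE 0.76, 95% interval -3.68 to -0.14) was the lowest of the 7, with a limma adjusted p of 0.280 and an exact permutation p of 0.2, where 3 lines against 3 cannot give less than 0.1. Its mean thus lay above those of *KRT19*, *KRT7* and *KRT8* in WT and below them in KO. The KO order of means came from KO replicate 3, where *KRT4* lay below these keratins. In KO replicates 1 and 2 it lay above each of them, as in every WT line. Without KO replicate 3 the log2 fold change was -1.15, and without WT replicate 2 it was -1.27.

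*KRT19*, the smallest keratin, which lacks most of the usual tail, was at 1140.7, 1511.7 and 893.3 FPKM in WT and at 531.0, 720.0 and 1123.0 FPKM in KO. KO replicates 1 and 2 lay below every WT line, and KO replicate 3 lay within the WT values. The means were 1181.9 ± 311.3 and 791.4 ± 302.4 FPKM (SD, n = 3 each), and the log2 fold change was -0.61 (SE 0.32, limma adjusted p = 0.356).

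*KRT7*, a type II keratin of ducts and glands, was at 828.1, 1418.8 and 595.2 FPKM in WT and at 661.5, 900.8 and 1142.9 FPKM in KO. The KO values lay inside the WT range. The log2 fold change was -0.01, with a 95% interval from -0.82 to 0.80, and the value turned to 0.33 without WT replicate 2, to 0.19 without KO replicate 1 and to 0.03 on TPM.

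*KRT8*, the type II keratin of simple epithelia, was at 540.9, 799.8 and 514.2 FPKM in WT and at 568.0, 640.6 and 901.1 FPKM in KO. It was the steadiest of the 7, with a 1.75-fold range over the lines. The mean was 618.3 ± 157.8 FPKM in WT and 703.2 ± 175.2 FPKM in KO (SD, n = 3 each). Its log2 fold change was 0.19 with a 95% interval from -0.39 to 0.77 (limma adjusted p = 0.716), and -0.01 without KO replicate 3.

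*KRT18*, the type I partner of *KRT8*, was at 103.1, 133.5 and 133.3 FPKM in WT and at 161.4, 157.0 and 314.7 FPKM in KO. It was the one keratin of the 7 whose KO lines all lay above the WT lines, though 18.3% of all tested genes did so. The WT lines lay close together, while KO replicate 3 lay far above the other KO lines. WT averaged 123.3 ± 17.46 FPKM and KO 211.0 ± 89.79 FPKM (SD, n = 3 each), a ratio of 1.712. The log2 fold change was 0.70 (SE 0.28, 95% interval 0.05 to 1.36), with a limma adjusted p of 0.280 and an exact permutation p of 0.1, the smallest possible. It was 0.38 without KO replicate 3, the library with the lowest share of mitochondrial FPKM (11.9%). With libraries scaled to the sum of their nuclear genes it was 0.62, with a 95% interval from 0.03 to 1.22. The part of the mitochondrial share in the result was not otherwise tested.

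*KRT80* was at 31.56, 48.90 and 30.67 FPKM in WT and at 20.57, 36.63 and 38.65 FPKM in KO. It was the lowest of the 7 in every line, and its groups overlapped. Its log2 fold change was -0.23 with a 95% interval from -0.89 to 0.43 (limma adjusted p = 0.696), and 0.06 without KO replicate 1. Even its lowest value rests on about 7700 fragments, so that counting error, at 1.138% there, is small beside the spread between lines.

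**Figure D1:**
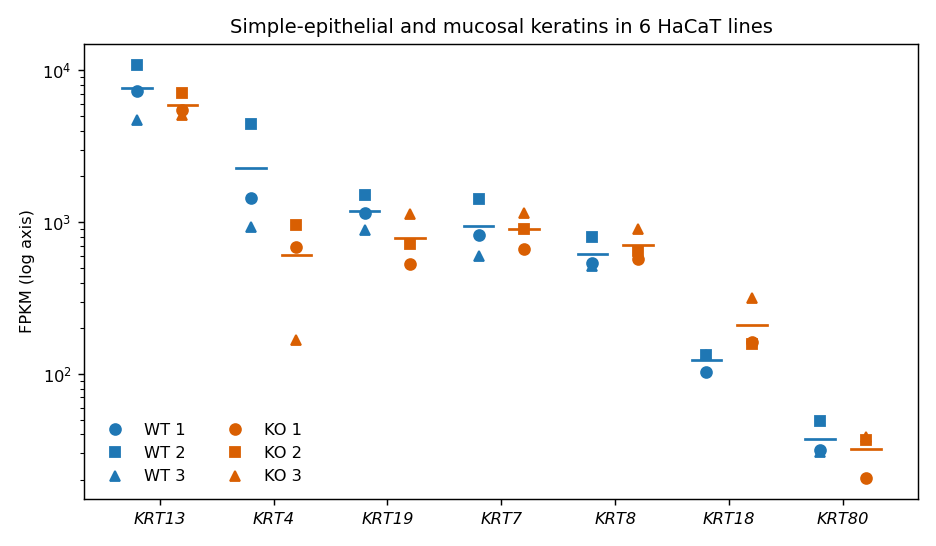
Level of each of the 7 keratins in FPKM on a log axis, with 1 point per cell line, 3 WT and 3 KO lines per gene and the group means marked. *KRT13* is the highest and *KRT80* the lowest in all 6 lines, *KRT4* has the widest spread (167.0 to 4411.8 FPKM), and only *KRT18* has KO points that all lie above the WT points.

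In order of the mean over the 6 lines the levels were *KRT13* (6765.3 FPKM), *KRT4* (1432.9), *KRT19* (986.6), *KRT7* (924.5), *KRT8* (660.8), *KRT18* (167.2) and *KRT80* (34.5). Some neighbours in this order were always apart. *KRT7* lay above *KRT8*, *KRT8* above *KRT18* and *KRT18* above *KRT80* in 6 of 6 lines. *KRT4* lay above *KRT19* in 5 of 6 lines, the exception being KO replicate 3. *KRT19* and *KRT7* could not be ordered, since *KRT19* was higher in 3 of 3 WT lines and in 0 of 3 KO lines.

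**Figure D2:**
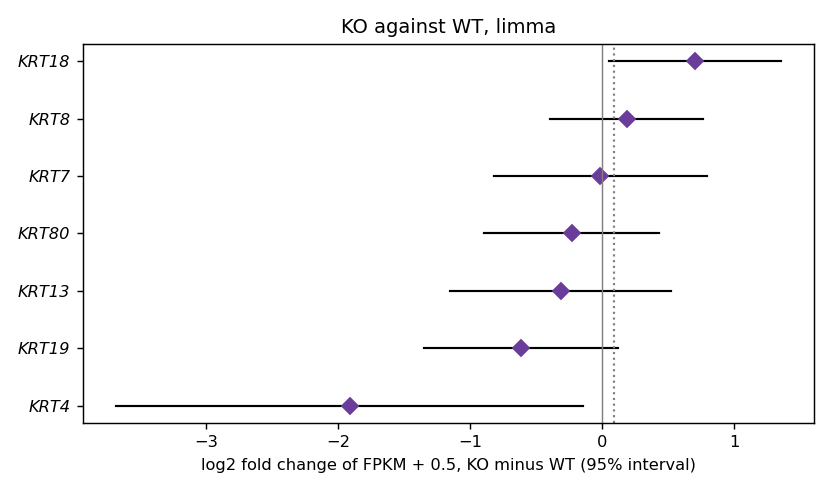
Log2 fold change of KO over WT on log2(FPKM + 0.5) for the 7 keratins, as limma estimates with their 95% intervals from 3 lines a group. The intervals of *KRT4* (-3.68 to -0.14) and *KRT18* (0.05 to 1.36) exclude 0 before adjustment, the other 5 include it, and no adjusted p is at or under 0.05.

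The ratio of partners within a line does not depend on how libraries are scaled. *KRT8* exceeded *KRT18* by 5.245, 5.992 and 3.859-fold in the WT lines and by 3.52, 4.079 and 2.864-fold in the KO lines. The type II message was thus in excess in every line. The log2 ratio of *KRT18* to *KRT8* was -2.31 ± 0.33 in WT and -1.79 ± 0.26 in KO (SD, n = 3 each). The groups overlapped, and the difference of 0.52 had a two-sided exact permutation p of 0.2.

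The ratio of *KRT19* to *KRT7* was 1.378, 1.065 and 1.501 in the WT lines and 0.8028, 0.7993 and 0.9826 in the KO lines. Within each WT line *KRT19* thus lay above *KRT7*, and within each KO line it lay below *KRT7*. The difference of the mean log2 ratio was -0.60, and between -0.75 and -0.50 when any line was left out. This ratio was chosen after its values were seen and was not tested.

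The groups did not overlap in the mucosal ratio either, though here the type II keratin was the one lower relative to its partner in KO. *KRT13* exceeded *KRT4* by 5.115, 2.469 and 5.065-fold in the WT lines and by 7.927, 7.39 and 30.37-fold in the KO lines. All 3 KO lines had less *KRT4* for their *KRT13* than any WT line. The difference of the mean log2 ratio of *KRT4* to *KRT13* was -1.60, and -0.94 without KO replicate 3. This ratio was likewise chosen after its values were seen and was not tested. For both ratios, how often those of other gene pairs separate the groups was not counted.

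The genes of both ratios lie on different chromosomes, and chromosome 17 was shifted in WT replicate 3. Relative to the library median, its 757 genes had a median log2 difference of -0.247 there, against -0.068 to 0.105 in the other lines, and chromosome 12 stayed between -0.037 and 0.017. With these medians removed, the differences were -0.67 for *KRT19* to *KRT7* and -1.53 for *KRT4* to *KRT13*. These values are a description of ratios chosen for their pattern, and the part of the chromosome shift in it was not tested.

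**Figure D3:**
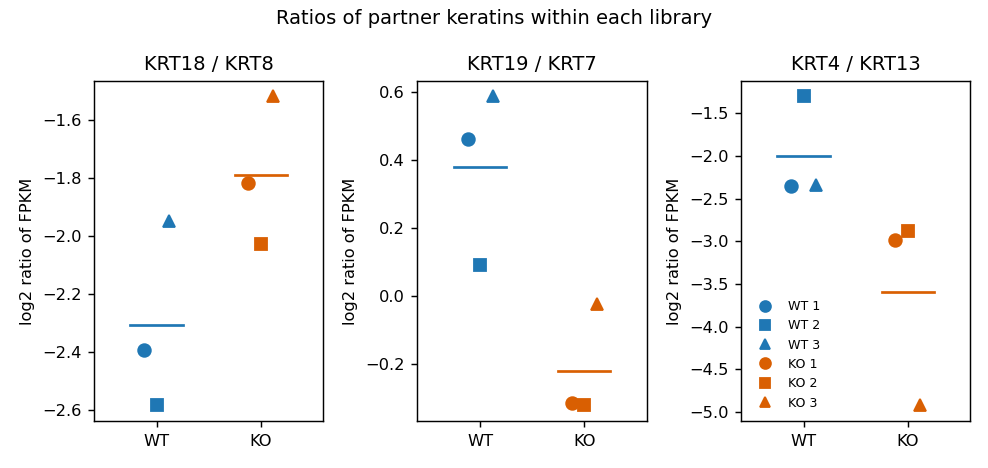
Log2 ratio of partner keratins in each line, for *KRT18* to *KRT8*, *KRT19* to *KRT7* and *KRT4* to *KRT13*, with 3 WT and 3 KO points and the group means. The KO points lie below the WT points for *KRT19* to *KRT7* and *KRT4* to *KRT13* and overlap them for *KRT18* to *KRT8*. Both ratios without overlap were chosen after their values were seen.

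Correlations across the 6 lines were tested for 3 partner pairs, and none passed the exact permutation test. Pearson's r of log2 levels was 0.713 for *KRT8* with *KRT18* (Spearman's rho 0.714, exact permutation p = 0.085 and 0.136), 0.720 for *KRT7* with *KRT19* (rho 0.600, p = 0.106 and 0.242) and 0.809 for *KRT4* with *KRT13* (rho 0.829, p = 0.064 and 0.058). Adjusted over the 3 pairs, the exact permutation p of r was 0.106 for each. Without the 2 lines farthest from the median of the first gene, r was 0.568, 0.734 and 0.626 in the same order. Positive values were not particular to partners. As a description, r was higher for *KRT7* with *KRT8* (0.879), *KRT7* with *KRT80* (0.839) and *KRT19* with *KRT80* (0.838), none of them partners listed above, and it was -0.815 for *KRT18* with *KRT4*.

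The tested genes most like each keratin over the 6 lines, by Pearson's r, are given as a description over 6 points from the same libraries. For *KRT13* they were *MFSD11* (0.999), *PLEKHH3* (0.997) and *SCPEP1* (0.990), and 33% of the 97 genes at 0.95 or above were on chromosome 17, which holds 6.18% of tested genes. For *KRT4* they were *WBP1* (1 after rounding), *CALCOCO1* (0.997) and *ADHFE1* (0.996), and for *KRT18* *POLR2C* (0.999), *FH* (0.996) and *ALKBH1* (0.996), with 437 genes at 0.95 or above. For *KRT8* they were *LAPTM4B* (0.997), *GET3* (0.991) and *CRIM1* (0.990), and for *KRT7* *INPP4B* (0.993), *MIEN1* (0.991) and *PPARG* (0.990). *KRT19* had *GHITM* (0.985), *ATP5F1C* (0.980) and *CUEDC2* (0.980). Of its 16 genes at 0.95 or above 0 were on chromosome 17, where *KRT19* lies too. *KRT80* had *EPHA2* (0.998), *FSTL1* (0.992) and *MAML1* (0.985).

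Added together, the 7 keratins came to 11441.2, 19215.3 and 7816.5 FPKM in the WT lines and to 8083.1, 10517.3 and 8757.8 FPKM in the KO lines. They made up 32.97, 53.31 and 20.84% of the FPKM of all 54 keratins in WT and 17.06, 33.89 and 30.5% in KO. WT replicate 2 thus had the largest share of simple and mucosal keratins and KO replicate 1 the smallest. The share was 35.71 ± 16.41% in WT and 27.15 ± 8.904% in KO (SD, n = 3 each), a difference smaller than the spread between WT lines. *KRT13* alone made up 56.68 to 67.52% of the summed level of the 7 in every line.

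The log2 ratio of type I to type II members was 1.599, 0.9083 and 1.472 in WT and 1.665, 1.652 and 1.533 in KO. Type I message was in excess in all 6 lines, least so in WT replicate 2, where *KRT4* was highest. Over all 54 keratins the same ratio lay between -0.4969 and 0.6045.

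**Figure D4:**
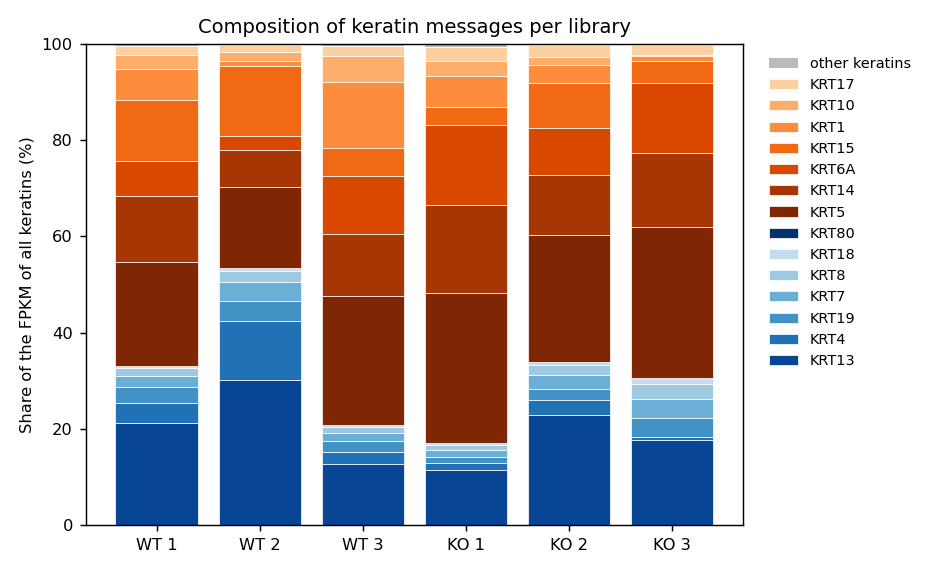
Share of each of the 7 keratins and of the other keratins in the summed FPKM of all 54 keratins, in percent, as 1 stacked bar per line from 0. The 7 keratins reach 53.31% in WT replicate 2 and 17.06% in KO replicate 1, and *KRT13* is the largest of them in all 6 bars.

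The other 47 keratins gave 21 genes above the filter, of which none was called, 0 had groups that did not overlap, 8 had a higher and 13 a lower KO mean on the log2 scale. The 5 highest were *KRT5*, *KRT14*, *KRT6A*, *KRT15* and *KRT1*. *KRT5*, the type II keratin of basal epidermis, was at 7544.4, 6086.3 and 10050.1 FPKM in WT and at 14767.9, 8176.5 and 9037.1 FPKM in KO. The other 4 overlapped between groups as well. *KRT1*, a keratin of differentiating epidermis, ranged from 258.7 FPKM in KO replicate 3 to 5120.8 FPKM in WT replicate 3, nearly as widely as *KRT4*. WT replicate 3 and KO replicate 1, which had the highest *KRT1* and *KRT6A*, had the lowest shares of the 7 keratins (20.84 and 17.06%).

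**Figure D5:**
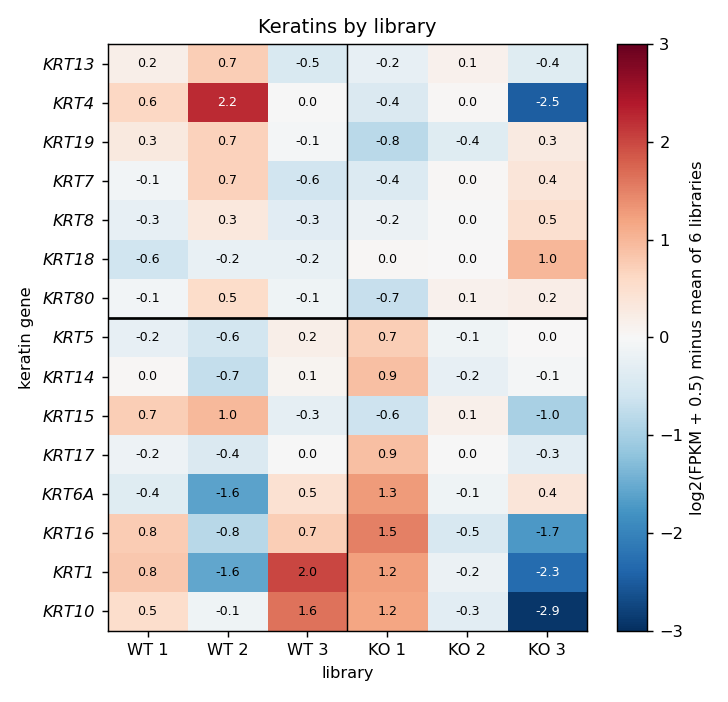
Deviation of each keratin from its mean over the 6 lines, as log2(FPKM + 0.5), for the 7 keratins and the 8 epidermal keratins with a mean of at least 50 FPKM, with 1 column per line. KO replicate 3 is low for *KRT4* (-2.48), *KRT10* (-2.93) and *KRT1* (-2.31) and high for *KRT18* (1.01).

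The genes that accompany these keratins in cells were counted in 3 lists. Of 10 linkers that tie keratin filaments to desmosomes and hemidesmosomes, all were tested and none was called. The median log2 fold change was 0.00, and 1 linker had KO lines all above WT, beside 18.3% of all tested genes. Without KO replicate 3 the median was 0.14, with 9 of 10 higher in KO, and without WT replicate 2 it was -0.11, with 7 of 10 lower. The linker without overlap was *PKP2*, a desmosomal plaque protein, at 25.98, 24.96 and 28.04 FPKM in WT and 30.84, 38.9 and 67.46 FPKM in KO. Its log2 fold change was 0.71 (limma adjusted p = 0.273). It was the 1 linker past the unadjusted threshold, which 10.2% of all tested genes passed upward. *JUP* (plakoglobin) was the highest linker, at 1008.5 to 1912.2 FPKM.

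Of 15 simple epithelial genes 13 were tested and none was called, with a median log2 fold change of -0.24, which was -0.09 without KO replicate 3 and -0.14 without WT replicate 2. *GRHL2*, a transcription factor of epithelia, had KO lines all above WT (log2 fold change 0.23, limma adjusted p = 0.408). *CDH1*, which encodes E-cadherin, had KO lines all below WT (-0.28, limma adjusted p = 0.386). Of all tested genes 18.3% had KO lines all above WT and 5.77% all below. *ELF3*, an epithelial transcription factor, was the one past the unadjusted threshold, at -1.64 (limma adjusted p = 0.296). Of all tested genes 2.33% passed it downward.

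Of 16 genes of mucosal squamous epithelium 12 were tested and none was called. All 12 had a lower mean in KO, beside 39.4% of all tested genes, and the median log2 fold change was -0.69. Without KO replicate 3 the lower ones were 8 of 12 and the median was -0.26, and without WT replicate 3 they were 9 of 12 with a median of -0.48. Of the 13 epidermal keratins, 6 had a higher and 7 a lower KO mean on the log2 scale. *KRT1* and *KRT10*, of differentiating epidermis, were among the lower (-0.83 and -1.37). Their groups overlapped, and KO replicate 3 was lowest for both. *MAL*, a membrane protein of apical transport, was at 122.0, 76.21 and 64.53 FPKM in WT and 32.22, 58.71 and 33.83 FPKM in KO, with no overlap (log2 fold change -1.07, limma adjusted p = 0.261). *SCEL* (sciellin, of the cornified envelope) also had KO lines all below WT (-0.97, limma adjusted p = 0.300), with KO replicate 3 lowest at 22.17 FPKM. Of all tested genes 5.77% had KO lines all below WT. *MAL* was the 1 gene of this list past the unadjusted threshold, which 2.33% of all tested genes passed downward. *EMP1* was the highest gene of the list, at 461.1 to 740.6 FPKM, with overlapping groups.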

How the data were processed

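The authors trimmed reads of stranded poly(A) libraries with fastp 0.20.0, pseudoaligned them with Kallisto 0.46.1 to GRCh38.p13 with GENCODE gene models, and deposited FPKM per gene in 1 file per library. How FPKM were calculated is not given in the sources used here. Of 21493 rows, 18 pseudoautosomal Y copies repeated their X copies and were left out. Symbols and positions are from GENCODE 44. The 12241 genes averaging 0.5 FPKM or more were compared by limma 3.58.1 (R 4.3.3) after the transformation log2(FPKM + 0.5), with a mean-variance trend and Benjamini-Hochberg adjustment over all of them. Fold changes on this scale understate those of low genes. The fit was tested on simulated data. The 7 keratins and the lists were chosen with earlier results of these data known. Named genes were the 7 keratins, the 5 highest other keratins, the 3 genes most like each keratin, and, in the 3 accompanying lists, the highest gene and those whose groups do not overlap; *ELF3* was added after its values were seen. One gene that this rule names is not reported here. Depth was estimated from the steps of low values and is rough.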

Additional observations from a re-analysis of the deposited data

How the results depend on the processing

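The comparison of all genes was repeated under 19 alternatives (pseudocount, filter, scaling, empirical Bayes step, replicate block, weights, chromosome medians, and each line left out). In 18 of them, those that left out a line included, 0 genes and 0 of the 7 keratins were called. With library quality weights 1396 genes were called, 1160 higher and 236 lower, and 2 of the 7 keratins with them, *KRT18* (0.74, limma adjusted p = 0.0419) and *KRT19* (-0.82, limma adjusted p = 0.0437). That fit gave WT replicate 1 a weight of 10.3 and the others 0.358 to 1.49. The replicate block called 0 genes, with a limma adjusted p of 0.0972 for *KRT4*. The labels do not say that the numbers pair the lines. Same-numbered deviations correlated at -0.206, 0.225 and 0.049, and differently numbered ones at -0.367 to 0.294. These ranges overlap, so the values cannot decide whether the lines are paired. Under median-of-ratios scaling the median over all genes went from 0.09 to near 0 and the unadjusted split went from 1251 higher and 285 lower to 818 and 488.

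Directions turned for *KRT7* (0.03 on TPM, from -0.30 to 0.33 with a line left out, 0.33 without WT replicate 2 and 0.19 without KO replicate 1), *KRT8* (-0.01 without KO replicate 3, up to 0.39), *KRT13* (0.24 after quantile normalization, -0.62 to -0.02 with a line left out) and *KRT80* (0.06 without KO replicate 1, down to -0.39). *KRT18*, *KRT19* and *KRT4* kept their sign in all 19, at 0.38 to 0.88, -0.90 to -0.36 and -2.41 to -1.15 with a line left out. The intervals of *KRT18* and *KRT4* did not exclude 0 in every setting. That of *KRT18* was -0.02 to 1.24 under median-of-ratios scaling and -0.02 to 0.78 without KO replicate 3. The *KRT18* interval also included 0 without the filter on low values, with chromosome medians removed and with any WT line left out. That of *KRT4* was -2.97 to 0.43 without WT replicate 2. The *KRT4* interval also included 0 without the filter on low values, without WT replicate 1 and without KO replicate 3. The difference in the share of the 7 keratins was between -15.99 and 0.2419 percentage points with a line left out. The cause of these changes was not tested. For the 7 keratins the counting error was at most 1.138% of a value, as estimated from a rough depth. For genes near 0 FPKM in the lists the effect of depth was not tested.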
